A study of Homo sapiens with 6 samples.

Results

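The genes described here are the 9 that encode the transcription factors best known for inducing an epithelial to mesenchymal transition (EMT) or that partner with them: the Snail factors SNAI1 and SNAI2, the Twist factors TWIST1 and TWIST2, the ZEB factors ZEB1 and ZEB2, and the E proteins TCF3, TCF4 and TCF12. They were listed by name, by a rule that uses no measured value, although earlier results of these data were known when they were listed. All 9 are among the 19198 genes listed for the series, and all 9 are among the 16988 tested, which had a mean of 10 normalized counts or more. RNA was sequenced from MCF10A, an established line of non-tumorigenic human mammary epithelial cells, in 6 samples, 3 of them kept in full growth factor medium and 3 in depleted medium. Every sample had 5% horse serum. The growth factor medium also held 10 µg/ml insulin, 20 ng/ml EGF, 100 ng/ml cholera toxin and 0.5 µg/ml hydrocortisone, and all of these were missing from the depleted medium, so that the removal of any single agent cannot be told apart from that of the others. The day on which depleted cells were collected is not given for these samples. The sources do not say that the samples came from separate cultures, so p-values measure only the spread between these samples, which may be technical.

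Depth was 7472418 to 28672630 reads on genes per sample, and 3 reads, taken as the floor for counting error only, corresponded to 1.76 to 6.71 normalized counts. The cells are labelled as luminal ductal. All 6 basal markers are listed, and they did not move together. KRT17 was at 9703, 16142 and 5882 normalized counts with growth factors and at 19236, 61384 and 123480 without, higher in every depleted sample. TP63 was at 271, 359 and 1615 with and at 8.24, 64.9 and 42.5 without, and ITGA6 at 10681, 11751 and 7554 with and at 6817, 3668 and 3434 without, both lower in every depleted sample. The groups overlapped in KRT5, KRT14 and ITGB4. The luminal markers did not move together either, and PGR is not listed. KRT8 was at 8635, 8570 and 2442 with and at 7755, 11928 and 19305 without. The groups overlapped in KRT8, KRT18, EPCAM and GATA3. ESR1 went from 206, 181 and 63.9 to 4.58, 32.8 and 24.6, and ESR1, KRT19 and FOXA1 were lower in every depleted sample. Of all tested genes, 13.5% were higher in every depleted sample than in every growth factor sample, and 12.1% were lower. Depleted replicate 1 stood apart. It had 610 normalized counts of CDH1, the gene of E-cadherin, against 13234 and 13118 in the other depleted samples and 12961 to 20039 with growth factors, and 562 of KRT5 against 10908 and 14997.

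Snail and ZEB factors are zinc finger repressors that bind E-box sequences such as CAGGTG in the promoters of epithelial genes, CDH1 among them. Twist factors are basic helix-loop-helix proteins that bind DNA as dimers with an E protein, and the ID proteins, which lack a DNA-binding region, hold E proteins back from such dimers. ZEB1 and ZEB2 transcripts are known targets of the miR-200 family and miR-205, and ZEB factors in turn repress the miR-200 genes. TCF4 here is the E protein E2-2 and not TCF7L2, a WNT pathway factor that was also once called TCF4.

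The microRNAs that connect to ZEB1 and ZEB2 are shown first because their seeds name the sites counted next. The mature sequences are those of RefSeq on GRCh38.p14, with bases 2 to 8, the seed, in capitals. miR-200c and miR-200b share 1 seed and miR-141 and miR-200a share another.
hsa-miR-200c-3p: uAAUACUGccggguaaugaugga
hsa-miR-200b-3p: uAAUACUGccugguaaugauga
hsa-miR-141-3p: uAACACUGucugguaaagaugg
hsa-miR-200a-3p: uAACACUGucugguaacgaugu
hsa-miR-205-5p: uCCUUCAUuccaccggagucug
The libraries did not measure mature microRNAs. Of their genes, the host transcripts MIR200CHG, which holds miR-200c and miR-141 on chromosome 12, and MIR205HG, which holds miR-205 on chromosome 1, are listed.

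The letters complementary to the miR-200b and miR-200c seed, CAGTATT, occurred 6 times in the 3' UTR of the MANE Select transcript of ZEB1 (2540 bases) and 5 times in that of ZEB2 (5370 bases), read from Gencode v44. TCF4 and SNAI2 had 1 match each, and SNAI1, TWIST1, TWIST2, TCF3 and TCF12 had none. Over 18780 such UTRs 16.4% held at least 1 match, 0.0426% at least as many as ZEB2 and 0.0106% at least as many as ZEB1. These shares are not adjusted for length, and the median UTR had 1088 bases, fewer than either ZEB UTR. Per kilobase, ZEB1 had 2.36 matches and ZEB2 0.93. The 6 ZEB1 sites and 2 of the ZEB2 sites are shown as transcript strand DNA, each named by the first base of the match counted from the start of the UTR, with the match in capitals.
ZEB1 369: attgttttatcttatCAGTATTatcactct
ZEB1 463: atgctaaatccgcttCAGTATTttattatg
ZEB1 892: gtaagtgccatttctCAGTATTttcaaggc
ZEB1 1243: ctgatttttacctatCAGTATTattttatt
ZEB1 1313: tgtcttcaaacctggCAGTATTaataccct
ZEB1 1964: tcttttcatcattatCAGTATTttctttgg
ZEB2 392: cgcactaccatacatCAGTATTtttattat
ZEB2 455: cgcactacaatgcatCAGTATTatgattcc
The match for miR-141 and miR-200a, CAGTGTT, occurred 3 times in ZEB1, 4 times in ZEB2, 2 times in TCF4 and 1 time in TCF12, against 18.5% of all UTRs with at least 1. The miR-205 match, ATGAAGG, occurred 1 time each in ZEB1 and TCF3, and 11.6% of all UTRs held it. A match describes letters in a transcript and not a site in use.

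The E-box CAGGTG and its reverse complement CACCTG were searched on both strands in the RefSeq promoter windows, which run from 250 bases before to 50 after a transcript start. Of 35116 windows, 20.6% held at least 1 match and 0.635% at least 3. The TWIST2, ZEB2 and TCF3 windows, all 10 TCF4 windows and all 5 TCF12 windows held none. Of 7 ZEB1 windows 2 held a match, and 1 of these, chr10:31318966-31319265 on the forward strand of GRCh38.p14, held 3. The matches began 242 and 85 bases before the transcript start and 33 bases after it and are shown with their surroundings, in capitals.
ZEB1 chr10:31318966-31318991: ccccaccaCACCTGaggaaaactttt
ZEB1 chr10:31319119-31319148: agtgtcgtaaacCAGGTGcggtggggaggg
ZEB1 chr10:31319237-31319265: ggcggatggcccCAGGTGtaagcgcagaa
No binding was measured in this series, and windows that hold no match say nothing of whether a factor binds there.

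Among the 9 factors, ZEB1 and TCF4 rose after growth factor depletion, SNAI1 fell, and the other 6 did not pass the test. A call needed a 2-fold change or more and, in limma, an adjusted p (Benjamini-Hochberg) below 0.05. By this rule 6.33% of all tested genes were called, 4.36% as higher and 1.97% as lower, against 3 of the 9 factors, 2 higher and 1 lower. In 4 factors (TWIST2, ZEB1, TCF4 and TCF12) every depleted sample was above every growth factor sample, which held for 13.5% of all genes, and in 1 (SNAI1) every depleted sample was below, which held for 12.1%. The median log2 fold change of the factors was 0.70 and that of all genes -0.029. These are bulk samples, in which fewer cells that express a gene and less RNA of it per cell cannot be told apart.

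**Figure D1:**
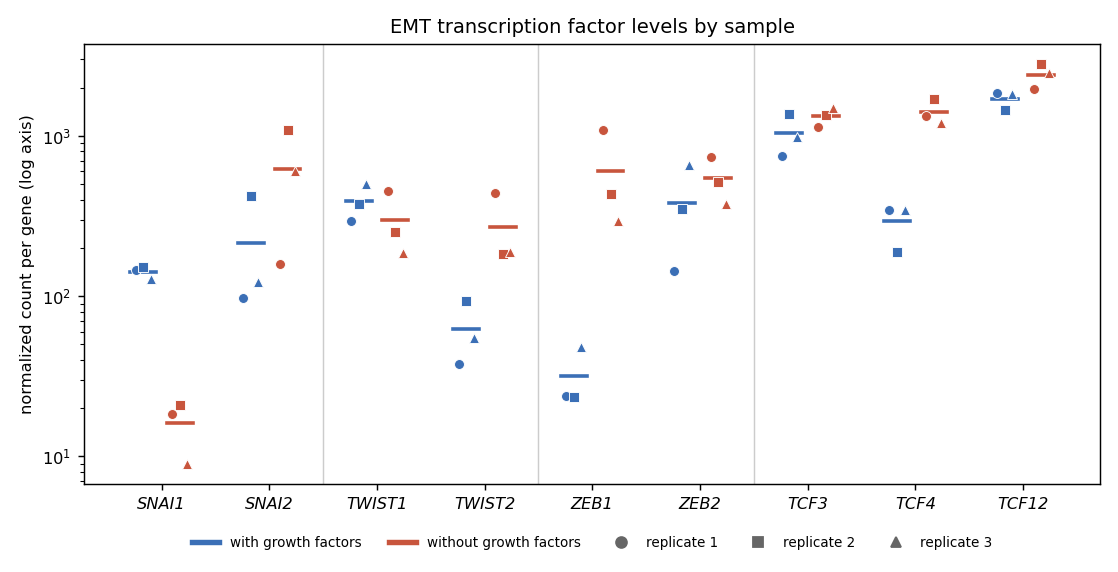
Normalized counts of the 9 transcription factors on a log axis, with 1 point per sample, the marker shape giving the replicate and the bar the mean of 3 samples. SNAI1 lies lower without growth factors, ZEB1 and TCF4 lie higher, and the other families mix or part by less than their spread allows to be called.

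ZEB1, at chr10:31318495-31529814 on hg38, had the largest change of the 9. It was at 23.8, 23.4 and 48.2 normalized counts with growth factors and at 1087, 436 and 293 without. All 3 depleted samples were far above all 3 growth factor samples. The log2 fold change was 4.06 ± 0.56 (SE, n = 3 per group, 95% interval 2.78 to 5.35), a 16.7-fold rise, with a limma adjusted p of 0.00488. With growth factors these levels rested on 19, 40 and 49 reads. Depleted replicate 1, the sample with little CDH1, held the most ZEB1, and without it the log2 fold change was 3.53 (adjusted p = 0.0119).

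The region across from the ZEB1 start holds ZEB1-AS1, an antisense long noncoding RNA at chr10:31206278-31320447 that overlaps the start of ZEB1. ZEB1-AS1 was at 26.3, 31.6 and 20.7 normalized counts with growth factors and at 58.6, 36.7 and 73.8 without. Its groups did not overlap, but the log2 difference of 1.04 ± 0.50 (SE) did not pass (limma adjusted p = 0.297). The order of its depleted samples was not that of ZEB1, since replicate 3 was its highest and was the lowest in ZEB1. The libraries were strand-specific, but the strand setting of the counting is not given in the sources used here, so reads in the shared stretch cannot be assigned with certainty.

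ZEB2, at chr2:144364364-144521057, encodes the closest relative of ZEB1. It was at 144, 352 and 656 normalized counts with growth factors and at 734, 517 and 378 without. The groups overlapped, with the growth factor samples spread over 4.55-fold. The log2 difference was 0.70 ± 0.54 (SE, 95% interval -0.54 to 1.94, limma adjusted p = 0.546). That interval includes both no change and a rise of more than 2-fold, so the data do not show that ZEB2 stayed level. Without depleted replicate 1 the log2 difference was 0.46, and without growth factor replicate 1 it was 0.12.

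Per kilobase of exon, the ZEB pair changed its makeup. ZEB1 made up 33.3%, 16.8% and 18.2% of the summed ZEB level with growth factors and 81.7%, 71.8% and 70.1% without. The mean share went from 22.8% ± 9.17 to 74.6% ± 6.29 (SD, n = 3), and the groups did not overlap. In an exact two-sided permutation test the difference of 51.8 percentage points had p = 0.1, the smallest that 3 samples against 3 can give. By coding length the means were 11.0% and 54.9%, since ZEB2 carries far more annotated noncoding exon sequence than ZEB1. Depleted replicate 3 was then at 48.9%. Without division by length the means were 9.09% and 49.7%, with depleted replicates 2 and 3 at 45.7% and 43.7%. The groups did not overlap by any of these measures, but a ZEB1 majority in every depleted sample depended on the length used.

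TCF4, at chr18:55222185-55664787, was the other factor that rose. It was at 346, 190 and 344 normalized counts with growth factors and at 1336, 1696 and 1212 without. The depleted samples lay within 1.40-fold of each other and all stood well above the growth factor samples. The log2 fold change was 2.30 ± 0.33 (SE, n = 3 per group, 95% interval 1.55 to 3.06), a 4.94-fold rise, with a limma adjusted p of 0.00568. Unlike ZEB1, TCF4 was not highest in depleted replicate 1, and leaving that sample out gave 2.34 (adjusted p = 0.0177).

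TCF12 (chr15:56918623-57299281), which encodes the E protein HEB, was at 1859, 1442 and 1826 normalized counts with growth factors and at 1951, 2811 and 2460 without. Every depleted sample was above every growth factor sample, but the margin was narrow, and the log2 difference of 0.49 ± 0.27 (SE, 95% interval -0.14 to 1.11) did not pass (limma adjusted p = 0.382). TCF3 (chr19:1609291-1652615), which encodes E2A, was at 755, 1380 and 990 with and at 1143, 1353 and 1489 without. These groups overlapped, with a log2 difference of 0.39 ± 0.30 (SE, 95% interval -0.31 to 1.08, limma adjusted p = 0.555). Both upper bounds lie just above a 2-fold rise and well below the estimate for TCF4.

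Of the summed E protein level per kilobase of exon, TCF4 held 3.63%, 1.73% and 3.27% with growth factors and 10.6%, 10.2% and 7.76% without. The mean went from 2.88% ± 1.01 to 9.53% ± 1.55 (SD, n = 3), with p = 0.1 in an exact two-sided permutation test, the smallest possible here. TCF4 stayed the least abundant of the 3 E proteins by this measure in every sample. The size of the shift depended on the length used, since the union of TCF4 exons is 29166 bases and its coding length 3296, and by coding length the means were 7.16% and 21.6%. TCF12 and TCF3 held the rest, with TCF12 at 51.5% ± 9.94 and 49.6% ± 2.43 and TCF3 at 45.7% ± 10.9 and 40.9% ± 3.18 (SD, n = 3).

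**Figure D2:**
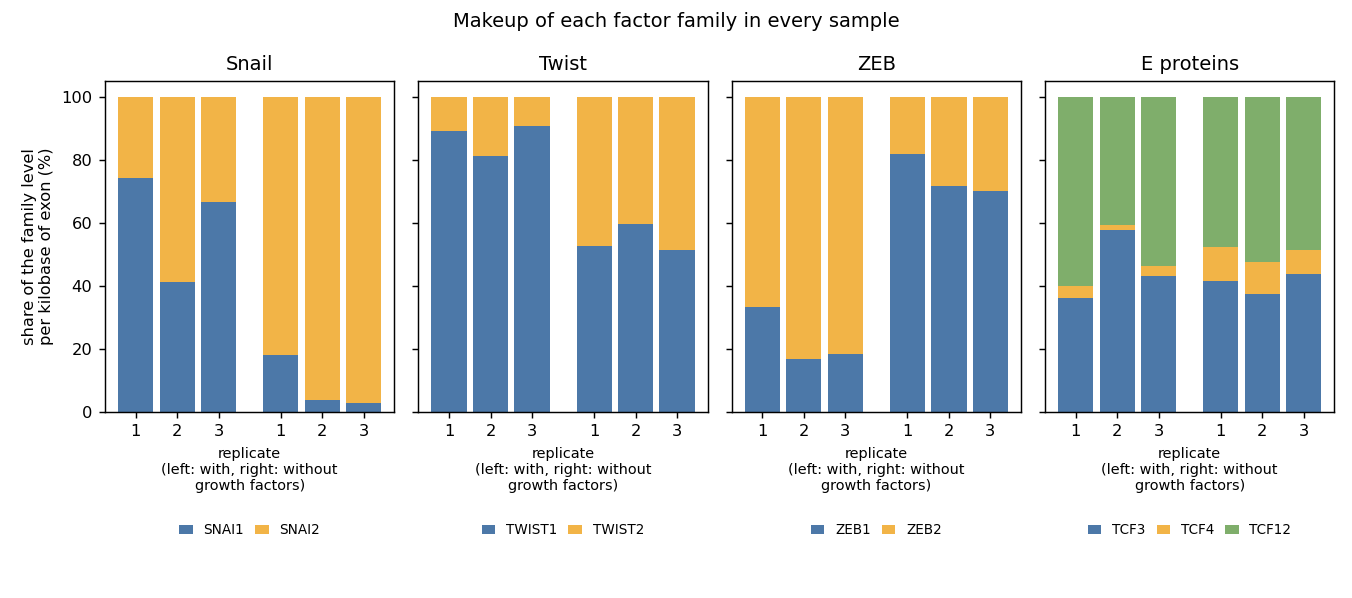
Share of each family's summed level per kilobase of exon (%, vertical axis) held by each member, with 1 bar per sample, replicates 1 to 3 with growth factors on the left of each panel and without on the right. By this length measure the ZEB panel goes from a mostly ZEB2 to a mostly ZEB1 makeup, and TCF4 widens from 2.88% to 9.53% of the E proteins on average.

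SNAI1, at chr20:49982980-49988886, was the factor that fell. It was at 147, 152 and 128 normalized counts with growth factors and at 18.3, 21.0 and 8.94 without. The growth factor samples lay within 1.19-fold of each other and every depleted sample was far below them. The log2 fold change was -3.14 ± 0.49 (SE, n = 3 per group, 95% interval -4.26 to -2.03), an 8.83-fold fall, with a limma adjusted p of 0.0079. The depleted levels rested on 20, 32 and 4 reads, so the lowest was just above the floor of 3 reads, and leaving out that sample gave -2.79 (adjusted p = 0.0395). Without depleted replicate 1 the value was -3.27 (adjusted p = 0.0177). RNF114, the neighbouring gene at chr20:49936336-49953885, was at 1169 to 2013 with and at 1269 to 1509 without, with a log2 difference of -0.15 ± 0.29 (SE, limma adjusted p = 0.83).

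SNAI2, also known as Slug, is at chr8:48917598-48921740 and had the widest spread of the factors among the depleted samples. It was at 97.8, 419 and 123 normalized counts with growth factors and at 159, 1089 and 606 without. Replicate 2 was the highest in each group, and depleted replicate 1 lay inside the range of the growth factor samples. The log2 difference was 1.46 ± 0.77 (SE, 95% interval -0.31 to 3.22, limma adjusted p = 0.35). With 1 sample left out it ran from 0.85 (adjusted p = 0.725, without depleted replicate 2) to 2.24 (adjusted p = 0.108, without depleted replicate 1), and none of these passed.

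The makeup of the Snail pair differed between the groups without overlap. SNAI2 made up 25.7%, 58.9% and 33.3% of the summed Snail level per kilobase of exon with growth factors and 81.9%, 96.4% and 97.2% without. The mean went from 39.3% ± 17.4 to 91.9% ± 8.64 (SD, n = 3), a difference of 52.5 percentage points with p = 0.1 in an exact two-sided permutation test. SNAI1 made up most of the Snail level in 2 of 3 growth factor samples and in no depleted sample.

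TWIST2, at chr2:238848032-238910534, was the nearest to the threshold of those that missed it. It was at 37.6, 93.7 and 55.1 normalized counts with growth factors and at 438, 183 and 188 without. The groups did not overlap, and the lowest depleted sample was above the highest growth factor sample by less than 2-fold. The log2 difference was 2.07 ± 0.51 (SE, 95% interval 0.90 to 3.25), with a limma adjusted p of 0.052. In DESeq2 on the recovered reads TWIST2 passed (log2 fold change 2.12, adjusted p = 0.00164), and in edgeR it did not (adjusted p = 0.053). Depleted replicate 1 was again the highest, and without it the log2 difference was 1.66 (limma adjusted p = 0.143).

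TWIST1, at chr7:19020991-19117636, went the other way in the mean and was not called. It was at 293, 379 and 501 normalized counts with growth factors and at 455, 252 and 186 without. The groups overlapped, and the log2 difference was -0.46 ± 0.41 (SE, 95% interval -1.39 to 0.47, limma adjusted p = 0.607). The interval does not reach the rise measured for TWIST2. Without depleted replicate 1 the log2 difference was -0.82 (adjusted p = 0.343). TWIST2 made up 10.7%, 18.8% and 9.35% of the summed Twist level per kilobase with growth factors and 47.5%, 40.4% and 48.7% without, with means of 13.0% ± 5.13 and 45.5% ± 4.44 (SD, n = 3). The shares did not overlap between groups and differed by 32.6 percentage points (exact two-sided permutation p = 0.1). By coding length TWIST2 was at 54.9%, 47.8% and 56.1% in the depleted samples. Which Twist gene held the larger share there depended on the length used.

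**Figure D3:**
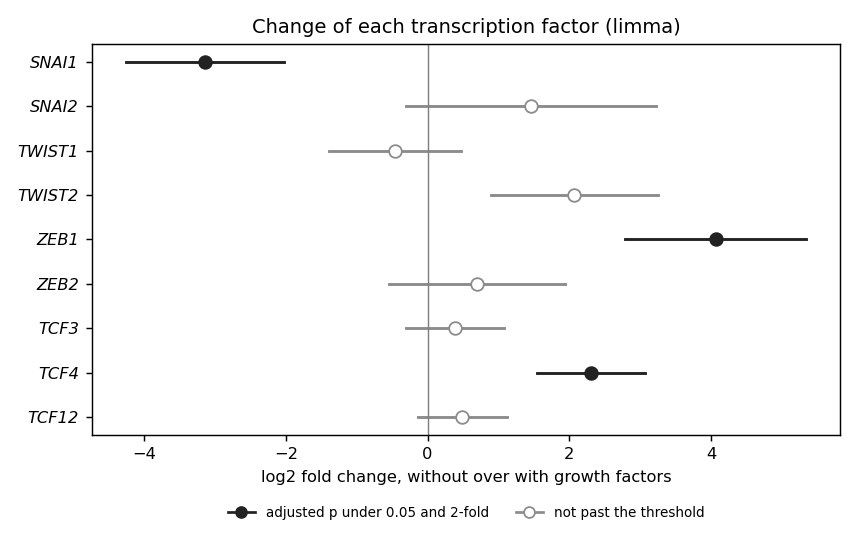
Log2 fold change of each transcription factor without over with growth factors (horizontal axis), with the 95% interval from limma as a bar and filled points for factors that passed the threshold. The intervals of SNAI1, ZEB1 and TCF4 lie beyond a 2-fold change, that of TWIST2 starts at 0.90, and the other 5 include 0.

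The depleted samples did not rank the factors alike. TWIST1, TWIST2, ZEB1 and ZEB2 were all highest in depleted replicate 1. SNAI1, SNAI2, TCF4 and TCF12 were highest in depleted replicate 2, and TCF3 in replicate 3. Over the depleted samples SNAI2 varied by 6.84-fold and ZEB1 by 3.71-fold, while TCF3, TCF4 and TCF12 varied by 1.30-fold to 1.44-fold.

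Levels can be ordered between genes only per length. With growth factors, in normalized counts per kilobase of exon, TWIST1 (196 ± 52.2), TCF12 (181 ± 24.5) and TCF3 (164 ± 49.6) came first, followed by SNAI1 (83.3 ± 7.37), SNAI2 (65.0 ± 54.4) and TWIST2 (29.2 ± 13.5). The lowest were ZEB2 (14.7 ± 9.85), TCF4 (10.1 ± 3.07) and ZEB1 (3.68 ± 1.64; all SD, n = 3). Only the steps from TCF3 to SNAI1 and from TCF4 to ZEB1 separated neighbours whose samples did not overlap. Without growth factors TCF12 (255 ± 45.7), TCF3 (209 ± 27.4) and SNAI2 (188 ± 142) came first, and ZEB1 (70.0 ± 49.0) was 6th.

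SNAI1 was last in the depleted order (9.43 ± 3.71 per kilobase), after TCF4 (48.5 ± 8.61) and ZEB2 (20.8 ± 6.86), and these last steps did not overlap. ZEB1 was the lowest with growth factors and SNAI1 the lowest without by exon length, coding length and the longest transcript alike. TCF4 and ZEB1 changed places in the depleted order with the length used, and other steps changed as well. By coding length SNAI2 and TWIST2 stood above TCF3 in the depleted order, and TCF12 stood above TWIST1 with growth factors.

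The ID genes, whose proteins oppose E proteins, moved mostly downwards, but only ID2 passed the test. ID2 was at 714, 770 and 894 normalized counts with growth factors and at 119, 178 and 130 without, a log2 fold change of -2.49 ± 0.31 (SE, limma adjusted p = 0.00309). ID1 was at 1802, 6916 and 2953 with and at 1245, 835 and 959 without, and its groups did not overlap, but the log2 difference of -1.73 ± 0.47 missed the threshold (limma adjusted p = 0.0702). The values of ID3 (-1.38, adjusted p = 0.251) and ID4 (0.53, adjusted p = 0.795) did not pass, and their groups overlapped. Without depleted replicate 1 these differences were -0.67 for ID3 and 1.55 for ID4.

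Relative to the ID genes, the E proteins were higher in each depleted sample. The log2 ratio of the summed E protein level to the summed ID level, both per kilobase of exon, was -3.07, -4.45 and -3.71 with growth factors and -1.59, -1.63 and -1.92 without. The difference was 2.03 on the log2 scale, with p = 0.1 in an exact two-sided permutation test, the smallest that 3 against 3 allow. The ratio stayed below 0 in all 6 samples by exon length, and without division by length it was above 0 in the 3 depleted samples. These are RNA levels, and no protein was measured in these libraries.

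The list of inhibitors and tissue-specific helix-loop-helix partners held 41 genes, the ID genes included, of which 7 were listed and tested: the ID genes, SCX, ATOH8 and MESP1. ID2 was the 1 call, so the list adds no call to those described for the ID genes, and its median log2 fold change was -0.20. Among the 28 corepressors and chromatin partners of Snail and ZEB, all tested, 2 rose and 1 fell, with a median of -0.12, where 4.36% and 1.97% of all genes were called in these directions. These counts are near the shares over all genes and are no result about the list. WTIP (2.34, limma adjusted p = 0.0186) and AJUBA (1.57, adjusted p = 0.0128), which encode LIM proteins that bind Snail, rose, and RCOR1 (-1.05, adjusted p = 0.0472), which encodes the CoREST scaffold, fell. RCOR1 lost its call in 12 of 19 alternatives, among them edgeR (adjusted p = 0.0617), the replicate block (adjusted p = 0.183) and each fit that left out 1 sample. No corepressor call remained when depleted replicate 2 or depleted replicate 3 was left out.

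Of the 24 kinases, ligases, proteases and related regulators that act on Snail or Twist protein, all tested, none was called by limma, edgeR or DESeq2. Over all tested genes limma called 6.33%. With 24 genes, no call is near that share and is no result about the list. Their log2 differences ran from -0.75 to 0.97 with a median of 0.0068. An unadjusted limma p under 0.05 was found for 1 of them, and for 3400 of all 16988 tested genes. The list includes GSK3B and BTRC, which mark SNAI1 protein for degradation, with log2 differences of 0.22 and 0.077. Leaving out growth factor replicate 3 gave 1 call.

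Other transcription factors linked to EMT included several that rose. Of 36 on the list, 26 were tested, 5 rose and none fell, against 4.36% of all genes called higher and 1.97% lower. The median log2 fold change was 0.84 against -0.029 over all genes. This list, too, was chosen with earlier results of these data known. PRRX1, a homeobox factor, went from 2.51, 3.51 and 1.97 normalized counts with growth factors to 1829, 534 and 586 without (log2 fold change 7.85 ± 0.58, limma adjusted p = 0.000445). Its growth factor levels were at most a few reads, so that the fold depends on the pseudocount. RUNX2 (3.70, limma adjusted p = 0.0237) and LEF1 (3.05, adjusted p = 0.0126) also rose, as did ETS1 (1.27, adjusted p = 0.0413), which was named after its value was seen. Without depleted replicate 2, or without depleted replicate 3, 1 call was left.

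The genes that Snail, ZEB or Twist are known to repress in epithelial cells were mostly lower in the mean, but few passed the test and much of the shift rested on depleted replicate 1. Of 34 genes 33 were tested, 2 fell and none rose, against 1.97% of all genes called lower and 4.36% higher. A negative log2 difference was found in 27, and the median was -1.07 against -0.029 over all genes. In 7 of the 33 every depleted sample was below every growth factor sample, which held for 12.1% of all genes. Without depleted replicate 1, 21 were negative and 12 positive, and the median was -0.19 against -0.037 over all genes. EPCAM, an epithelial adhesion protein chosen for mention after its values were seen, was at 153 in that sample and at 2281 and 2486 in the other depleted samples. TJP3, a tight junction protein, went from 1538, 598 and 1235 normalized counts to 125, 184 and 195 (log2 fold change -2.66 ± 0.41, limma adjusted p = 0.00769). KRT19, a simple epithelial keratin, went from 214, 111 and 124 to 30.2, 25.6 and 29.1 (-2.31 ± 0.44, adjusted p = 0.0196). CDH1, the best known target, was not called (-1.67 ± 1.07, limma adjusted p = 0.448), since it was low in depleted replicate 1 alone, and without that sample its difference was -0.19.

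The genes known to rise under these factors were mostly called. Of 30 on the list 27 were tested, 18 rose and none fell, against 4.36% of all genes called higher and 1.97% lower. The median log2 fold change was 4.10 against -0.029 over all genes. The list was chosen with earlier results of these data known, so its count is no independent evidence that the factors acted. VIM, which encodes the filament protein vimentin, was at 316, 367 and 643 normalized counts with growth factors and at 44834, 16542 and 19283 without (5.85 ± 0.45, limma adjusted p = 0.000496). The largest rises were those of LUM (10.39), CDH11 (10.19), TAGLN (8.31) and COL1A2 (7.19), all with an adjusted p of at most 0.0012. LUM had at most 3 reads in any growth factor sample, and its estimate ran from 7.95 to 11.33 over the alternatives.

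**Figure D4:**
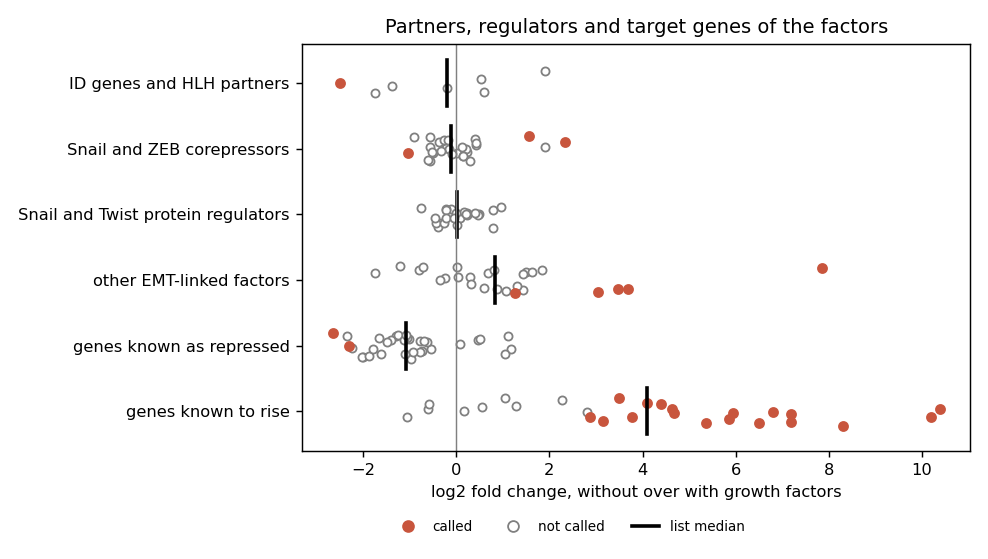
Log2 fold change without over with growth factors (horizontal axis) of every tested gene in 6 lists of partners, regulators and targets, with filled points for called genes and a bar for the list median. Called genes gather in the list of genes known to rise (18 of 27, against 4.36% of all genes called higher). Of 33 genes known as repressed 2 were called, against 1.97% of all genes called lower. Of these 33, 27 lie below 0 with depleted replicate 1 included.

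Several of these rising genes are also fibroblast markers, and the listed markers were higher without growth factors, as were ZEB1 and TCF4. Of 8 fibroblast markers 7 are listed, and their sum was 784 to 1539 normalized counts with growth factors and 9563 to 17311 without. All 7 were higher in every depleted sample, which held for 13.5% of all tested genes. These markers, too, were chosen with earlier results of these data known, and they overlap the list of genes known to rise. FAP made up most of the sum in each growth factor sample. LUM, PDGFRA, PDGFRB and COL1A1 were called, while FAP and DCN did not pass. THY1, a surface marker of fibroblasts, was at 0, 0 and 0.98 with and at 2.75, 3.28 and 6.71 without. THY1 was too low to be tested, and in depleted replicates 1 and 3 it lay at the floor of 3 reads. The part of other cell types in the results was not tested. The 2 listed leukocyte markers of 6 summed to 272 to 884 with and 86.5 to 656 without, and the 4 listed endothelial markers of 5 to 167 to 1787 and 265 to 1610, so that neither sum separated the groups. Single markers did separate them. The leukocyte marker PTPRC was at 1.25, 0 and 1.97 with and at 10.1, 13.8 and 11.2 without. The endothelial marker CDH5 was at 8.77, 4.10 and 4.92 with and at 25.6, 119 and 101 without. KDR was lower in every depleted sample, and the groups overlapped in CD14, PECAM1 and VWF.

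The microRNA host transcripts are the last set tied to the ZEB genes, whose seed matches were described at the start. MIR200CHG was at 110, 77.9 and 100.3 normalized counts with growth factors and at 11.9, 37.4 and 44.7 without. Every depleted sample was lower, and depleted replicate 1, the sample with the most ZEB1, was the lowest, but the log2 difference of -1.77 ± 0.58 (SE) did not pass (limma adjusted p = 0.124). DESeq2 called it (adjusted p = 0.0466). MIR205HG was at 787, 1001 and 9494 with and at 235, 572 and 599 without, again with no overlap and no call (-2.18 ± 0.88, limma adjusted p = 0.208). Without growth factor replicate 3, the highest sample, the log2 difference was -1.04 (adjusted p = 0.155), and with the replicate block MIR205HG was called (adjusted p = 0.0455).

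**Figure D5:**
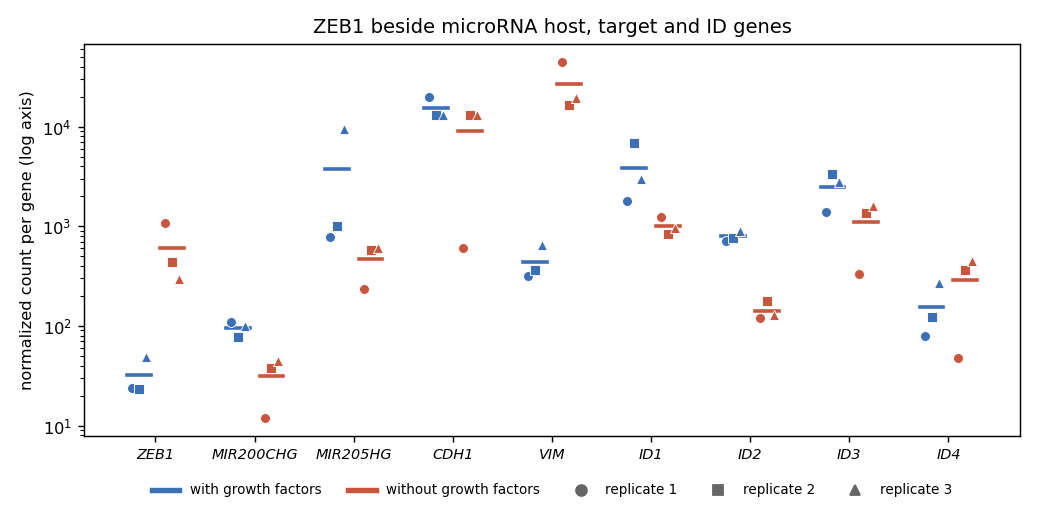
Normalized counts per sample on a log axis for ZEB1, the microRNA host genes MIR200CHG and MIR205HG, CDH1, VIM and the ID genes, with the marker shape giving the replicate and the bar the mean of 3 samples. Depleted replicate 1 has the most ZEB1 and VIM and the least MIR200CHG and CDH1 of the 6 samples.

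For each called factor, the 3 genes with the most similar pattern over the 6 samples were found among the tested genes with a mean of at least 100. For SNAI1 these were SLTM, SCRN3 and ABITRAM, with Pearson correlations of 0.998, 0.997 and 0.995. For ZEB1 they were ITGA11 (0.998), ABCC4 (0.995) and BEND6 (0.994), and for TCF4 they were DAB2 (0.998), MN1 (0.996) and VEZF1 (0.995). These values describe 6 samples in 2 conditions, and any gene that differs between the conditions with little spread scores high.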

How the data were processed

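MCF10A RNA was measured by strand-specific RNA-Seq in 6 samples, grouped by the labels. The deposited signal values are normalized counts: the authors trimmed 100-base single-end reads, aligned these with TopHat2 (hg38), counted reads per Gencode v22 gene in HTSeq and scaled the counts by size factors of DESeq2, without dividing by gene length. The submitters' processing notes name cutadapt 1.6, HTSeq 0.6, DESeq2 1.8.1 and R 3.2.0. Whole reads were recovered for 100% of values (tolerance 0.01 reads), and depth was 7472418 to 28672630 reads on genes. Rows with few reads had been left out before deposit by a step not described: in the table, 3 or more samples have 3 or more reads of each gene.

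Values were tested as log2(value + 1) with limma 3.58.1 in R 4.3.3 (lmFit, eBayes with a trend), two-sided, over 16988 genes (mean of 10 or more), 3 samples against 3. Fold changes are on this scale, which understates those of low genes. Intervals are at 95%. Ratios and shares within a sample were compared by exact permutation tests. edgeR 4.0.16 and DESeq2 1.42.0 were run on the recovered reads as alternatives, beside other pseudocounts, filters and scalings, a transcript length correction, a replicate block and each sample left out. The procedure was tested on simulated data.

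Names, coordinates and lengths came from Gencode v44 (18913 of 19198 identifiers), a later release than the one counted on. Lengths are the union of exons unless stated. 3' UTRs are those of MANE Select transcripts. The 9 factors and all lists were chosen with earlier results of these data known. Named genes were the 9 factors, a fixed set of context genes, up to 4 called genes with the largest rise and fall per list, and, for each called factor, the 3 genes most similar to it. 1 gene that this rule names is not reported here. SNAI3, ZEB2-AS1, TCF4-AS1 and TCF4-AS2 are not listed in the table and are not analysed here. The RefSeq promoter table used here held no window for CDH1, SNAI1, SNAI2 or TWIST1. Python 3.11.15 (pandas 2.3.3, matplotlib 3.10.9, numpy 2.4.6, scipy 1.17.1) was used for shares, sequences and plots.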

Additional observations from a re-analysis of the deposited data

How the results depend on the processing

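SNAI1, ZEB1 and TCF4 passed under all alternatives run, and the number of factors called stayed at 3 or 4, with TWIST2 as the fourth in DESeq2, without a filter, among protein-coding genes, with the transcript length correction and at an adjusted p under 0.1. Calls over all genes, 1076 here, were 2112 in DESeq2, 1706 at an adjusted p under 0.1, 418 at 0.01, and 453 to 2474 with 1 sample left out, the most without growth factor replicate 3 and the fewest without depleted replicate 2. With 1 sample left out, list calls ran from 1 to 2 for helix-loop-helix inhibitors and partners, 0 to 2 for corepressors, 0 to 1 for protein regulators, 1 to 7 for other EMT-linked factors and 1 to 2 for repressed genes. DESeq2 called 2 of the inhibitors and partners and 4 of the repressed genes.

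Same-numbered samples did not deviate together (r = -0.073, -0.28 and -0.32), so the numbers were not taken as pairs. Growth factor replicate 2 deviated with depleted replicate 3 (r = 0.29), and growth factor replicate 3 with depleted replicate 2 (r = 0.25). Because deviations are taken from the mean of each group, these correlations are not independent of each other. Deviations from the group mean followed exon length in some samples. The Spearman correlations were -0.44 and 0.43 in growth factor replicates 2 and 3, and 0.29 and -0.30 in depleted replicates 2 and 3. With the replicate block 1 repressed gene was called, KRT19 losing its call (adjusted p = 0.0529), RCOR1 lost its call and MIR205HG gained one, and all 3 factor calls held. Leaving out 1 sample turned the direction of some values that had not passed: ID4 (-0.053 to 1.55, negative without depleted replicate 3), TCF7L2 (-0.90 to 0.43, positive without growth factor replicate 3), RNF114 (-0.35 to 0.044, positive without growth factor replicate 1) and RUNX1 (-0.19 to 0.72, negative without depleted replicate 2 or growth factor replicate 2). The rise in the TCF4 share of E proteins was 6.65 percentage points by exon length, 14.4 by coding length and 17.9 without division by length. The causes were not tested. Depth limits SNAI1 without growth factors, at 4 to 32 reads, and ZEB1 with them, at 19 to 49.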

Other observations

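The remaining genes named for context did not pass limma's test. RUNX1, the subject of the study, was at 1280, 985 and 3471 normalized counts with growth factors and at 1507, 3093 and 1362 without, with a log2 difference of 0.18 ± 0.52 (SE, adjusted p = 0.898). TCF7L2, the WNT factor that shares an older name with TCF4, was at 165, 176 and 1046 with and at 244, 344 and 145 without (-0.44 ± 0.71, adjusted p = 0.795). Its relative TCF7L1 was at 1.25, 0.59 and 33.5 with and at 31.1, 95.7 and 38.0 without. TCF7L1 passed only when growth factor replicate 3 was left out (log2 fold change 4.71, limma adjusted p = 0.00707, against 0.144 with all samples). HDAC9, the gene next to TWIST1, was at 91.5 to 396 with and at 66.8 to 779 without (0.68 ± 0.94, adjusted p = 0.754), and its difference ran from 0.064 without depleted replicate 2 to 1.83 without depleted replicate 1. SNAI3-AS1, antisense to the Snail gene SNAI3, was at 12.5, 19.3 and 45.3 with and at 60.4, 39.3 and 44.7 without (1.05 ± 0.59, adjusted p = 0.381).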
